A study of Homo sapiens with 18 samples.

Results

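Chromatin accessibility of untreated SCC6 cells was compared with that of untreated SCC1 cells. Both are established lines of head and neck squamous cell carcinoma, and both were profiled by ATAC-seq, which reads out open chromatin through cuts made by a transposase. Cells of both lines were grown in DMEM and Ham's F12 with fetal bovine serum and received PBS, the vehicle, daily for 5 days. The comparison used the 3 SCC6 PBS libraries and 2 SCC1 PBS libraries, replicates 1 and 3, out of 18 samples in the series. SCC1 PBS replicate 2 was not analysed here. Of the 115087 regions in the deposited table, the 86315 left after dropping the 25% with the lowest mean over these 5 libraries were tested. The 6 libraries of the same lines after 5 days of cetuximab at 100 nM, an antibody against EGFR, and the 3 SCC25 PBS libraries, from a further carcinoma line, are given beside some values. Each line is a single cell population, and the labels do not say whether replicates were separate cultures, so the p-values measure only the spread between these libraries.

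Squamous epithelium is built in layers. Basal cells express the keratins KRT5 and KRT14, the transcription factor TP63 and adhesion proteins that anchor them to the basement membrane, while simple epithelia express KRT8, KRT18 and KRT19. Carcinoma lines keep parts of these programs and also carry gains and losses of chromosome segments. ATAC-seq reads scale with the number of DNA copies as well as with openness, so that a shift shared by all regions of a segment looks like a change in copy number. From accessibility alone, more copies and more open chromatin cannot be told apart.

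Sequences of the kinds of region that set the lines apart are shown first, on the plus strand of hg19 (GRCh37). The first pair was higher in SCC6 and held TGTGGTT or its reverse complement (capitals), the core site of RUNX transcription factors. The third was lower in SCC6 and held CATG followed after 6 free bases by CATG (capitals), the core letters of a paired site of the p53 family, to which TP63 belongs. It also holds TGTGGTT and TGAGTCA, an AP-1 site, left in lower case. Within its capitals lies GTAAACA, the reverse complement of the forkhead site TGTTTAC. Other motifs searched were not marked in these sequences. The regions shown were among those with the highest signal in the higher line, 1 per chromosome for each motif. They were taken from motif-bearing regions outside promoters with a log2 difference of at least 3 and a segment median within 0.4 of 0.
RPL39L, chr3:186905017-186905136: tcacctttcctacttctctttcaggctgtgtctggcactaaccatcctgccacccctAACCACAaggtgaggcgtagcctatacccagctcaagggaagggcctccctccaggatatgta
NRP2, chr2:206619886-206620005: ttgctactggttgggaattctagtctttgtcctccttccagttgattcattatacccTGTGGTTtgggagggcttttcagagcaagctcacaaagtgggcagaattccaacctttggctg
DGKG, chr3:186039076-186039195: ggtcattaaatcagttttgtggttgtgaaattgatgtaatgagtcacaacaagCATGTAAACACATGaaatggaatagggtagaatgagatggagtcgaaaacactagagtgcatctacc

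The last pair stands for regions about 200 bases wide, poor in G and C, that were at 1 read or none in the SCC1 libraries. Both lie between genes and are printed whole, with nothing marked, because width and composition are what they share. They had the highest SCC6 signal of that kind, 1 per chromosome.
NR5A2, chr1:199648656-199648855: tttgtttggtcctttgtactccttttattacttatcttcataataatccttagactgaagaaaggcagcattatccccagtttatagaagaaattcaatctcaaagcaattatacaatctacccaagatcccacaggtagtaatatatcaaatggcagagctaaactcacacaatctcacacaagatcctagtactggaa
SEMA3A, chr7:84457006-84457206: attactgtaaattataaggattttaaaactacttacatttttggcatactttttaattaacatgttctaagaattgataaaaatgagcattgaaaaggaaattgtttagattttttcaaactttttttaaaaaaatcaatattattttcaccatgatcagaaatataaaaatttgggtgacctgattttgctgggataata

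The signal is a scaled read count in which 0 reads were set to 1, so 0 and 1 read cannot be told apart. The RPL39L region, between genes, had 24.7 and 49.1 in SCC1 and 540.1, 514 and 486 in SCC6. The intronic NRP2 region had 19.5 and 14.5 in SCC1 and 350.4, 369 and 275 in SCC6. The intronic DGKG region had 258 and 266 in SCC1 and 9.67, 11.4 and 5.44 in SCC6. The NR5A2 region had 1.30 and 1.12 in SCC1 and 665, 487 and 623 in SCC6, where the SCC1 values are those of 0 or 1 read. In none of these regions did the libraries of the lines overlap. The regions were picked by such differences, so this gap is built in.

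Reads in regions were 3577180 and 4171650 in the SCC1 libraries and 4098164 to 7260488 in the SCC6 libraries. Of all regions, 27.7% and 21.8% were at 1 read or none in SCC1 and 11.1% to 16.6% in SCC6. Pairs of libraries of the same line were correlated across regions (Pearson's r 0.915 to 0.944, regions not being independent replicates) and differed by 1.85 to 1.92 times the counting variance (chi-square per degree of freedom). Epithelial and squamous identity was checked at the promoters of 10 markers. TP63, CDH1, DSP, EPCAM, GRHL2, ITGB4 and LAMB3 were above 20 in every library and did not pass the test, and KRT5, KRT14 and DSG3 were lower in SCC6. Of 27 markers of other cell types 6 had a promoter region, with a summed signal of 908 and 991 in SCC1 and 858 to 942 in SCC6. Of the 3 that passed the filter, PAX8 (-0.51) and CD68 (-0.49) were lower and PMEL (0.30) higher, the last not called under any of 5 other scalings.

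Most tested regions differed between the lines. In SCC6, 31653 regions (36.7%) were higher and 23053 (26.7%) lower at an adjusted p under 0.05 (limma, two-sided, Benjamini-Hochberg), and 27248 and 18187 of them by more than 2-fold. Among the 14346 tested regions within 1 kb of a start site of a protein-coding gene, called promoter regions, 4062 (28.3%) were higher and 2817 (19.6%) lower. The median log2 difference, SCC6 minus SCC1, was 0.12 over all regions and 0.07 over promoter regions. The balance of promoter calls depended on the scaling, with 59.0% of calls higher here, 46.9% after TMM scaling, 45.9% in edgeR, 44.5% in DESeq2 and 70.7% with the trend with GC content and segment medians removed. The median of all regions was -0.02 under TMM and -0.05 under DESeq2.

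A single width class held much of the excess in SCC6. Regions within 5 bases of 200 in width, a class noticed after the values were seen, made up 40.9% of the regions higher in SCC6, 3.10% of those lower and 3.51% of those not called. The 12952 of them called higher had a median GC content of 32.5%, against 47.4% for the other higher regions, and 1.54% against 20.7% were promoter regions. Their median signal was 1.30 and 1.12 in the SCC1 libraries and 33.8, 30.8 and 31.5 in the SCC6 libraries. The same regions had medians of 0.721 to 0.848 in untreated SCC25, 1.27 to 1.95 in SCC1 after cetuximab and 33.4 to 55.6 in SCC6 after cetuximab.

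These narrow regions were spread over the genome. A peak had been called at 64.6% to 82.3% of them in the SCC6 libraries and at 0.0154% in each SCC1 library. They lay on all 23 chromosomes in the table, from 6.15% of the tested regions of chromosome 19 to 31.4% of those of chromosome X. Without regions of this width 18628 of 71541 were higher and 22235 lower, so that 45.6% of calls were higher in place of 57.9%. A region that passes the filter through its SCC6 signal alone has to differ, and what sets this class apart was not tested.

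**Figure D1:**
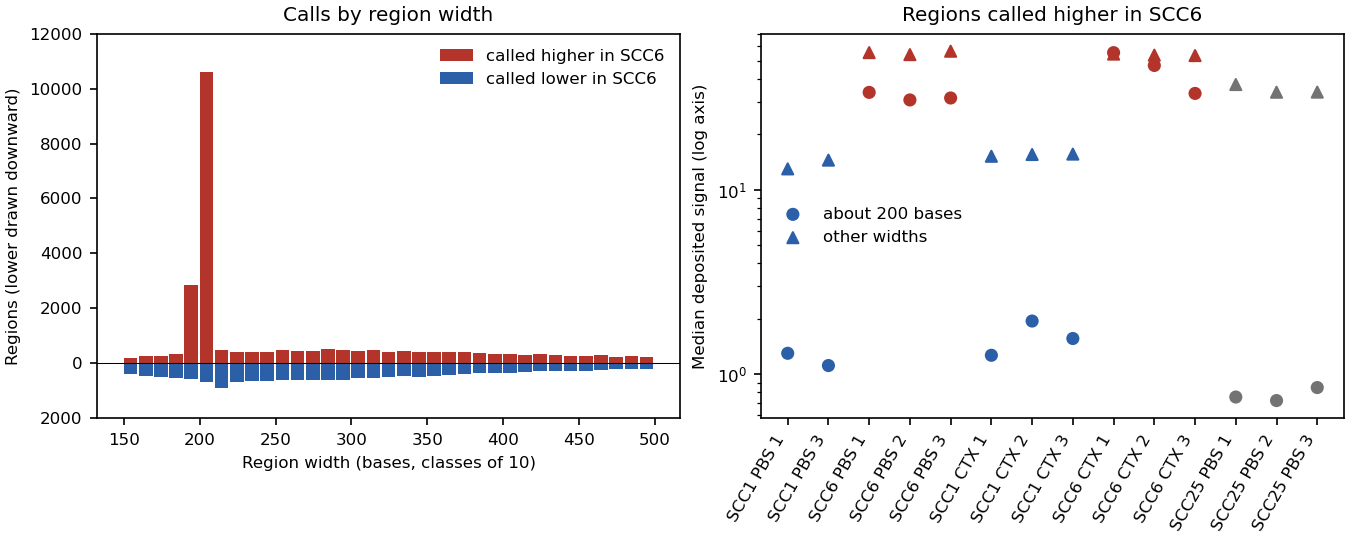
Left, number of regions called higher (red, upward) or lower (blue, downward) in SCC6 by region width in bases, in classes of 10. Right, median deposited signal per library (log axis) of the regions called higher, circles for widths within 5 bases of 200 and triangles for other widths, blue SCC1, red SCC6, grey SCC25; the circles lie between 0.721 and 1.95 in the SCC1 and SCC25 libraries and between 30.8 and 55.6 in the SCC6 libraries.

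Neighbouring regions shifted together along chromosome segments. Medians in bins of 2 Mb, less the median of all bins, were joined into 124 segments, of which 61 (936 Mb) had a mean at least 0.4 higher and 18 (342 Mb) at least 0.4 lower in SCC6 on the log2 scale, out of 2840 Mb. No test was run on segments. A stricter set was then taken, by a rule chosen after the values were seen, in which promoter regions, regions outside the narrow class and the cetuximab libraries each gave a median of at least 0.4 in the same direction and at least 10 promoter regions were tested. It kept 12 higher segments (318 Mb) and 8 lower ones (182 Mb). Of the 49 higher segments it dropped, 29 were under 0.4 once the narrow class was left out, 18 of them with the other sign, and the narrow class made up 9.47% to 91.1% of their regions.

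Chromosome arm 11q carried the largest of the 20 shared shifts. From 98 to 104 Mb the 341 regions outside the narrow class had a median log2 difference of 3.39, with 3.42 after cetuximab and 3.20 over the 22 promoter regions. Relative to the mean of the 5 libraries the SCC1 libraries stood at -2.08 and -1.94 and the SCC6 libraries at 1.33, 1.32 and 1.35. From 104 to 136 Mb the sign changed, with a median of -0.95 over 921 regions and -0.91 after cetuximab.

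The other 11 higher segments had medians, without the narrow class, of 0.47 to 1.70. They were 5q from 158 to 170 Mb (1.57), 9q from 66 to 104 Mb (1.18), 14q from 20 to 40 Mb (1.08) and from 46 to 84 Mb (0.47), 10p (0.92), 20q (0.83), 21q from 26 to 34 Mb (0.55), 7p (0.53), 19p from 6 to 26 Mb (1.70), 19q (1.37) and 22q from 40 to 52 Mb (1.67). Arm 7p carries EGFR and the HOXA cluster. After cetuximab 19p, 19q and 22q stood at 0.92, 0.60 and 0.72, while 5q, 9q and 10p stood at 2.02, 1.26 and 1.07.

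The other 7 lower segments were 18p (-1.05), 6q from 70 to 92 Mb (-0.88), 20p (-0.86), Xq from 106 to 126 Mb (-0.75), 4q from 68 to 92 Mb (-0.71) and 4p from 0 to 28 Mb (-0.69) and from 36 to 50 Mb (-0.68). After cetuximab they stood between -0.42 and -0.94. Chromosome 20 was thus lower in SCC6 on its short arm and higher on its long arm.

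Reads summed over the 25% of regions with the lowest signal gave smaller differences on these segments. These regions were set aside for a low mean over the same 5 libraries, which leaves out those high in either line. Reads of 0 also count as 1 there, so smaller differences are partly built in. Their log2 ratio, SCC6 over SCC1, was 1.16 and -0.77 on the neighbouring 11q segments. On the other higher segments it lay between 0.18 and 0.59, except 0.06 on 14q from 46 to 84 Mb and 0.08 on 20q. On the lower ones it was -0.41 on 20p, -0.35 on 6q, -0.20 on 18p, -0.18 on Xq, -0.11 and -0.03 on 4p and 0.10 on 4q, where its sign was the opposite one.

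**Figure D2:**
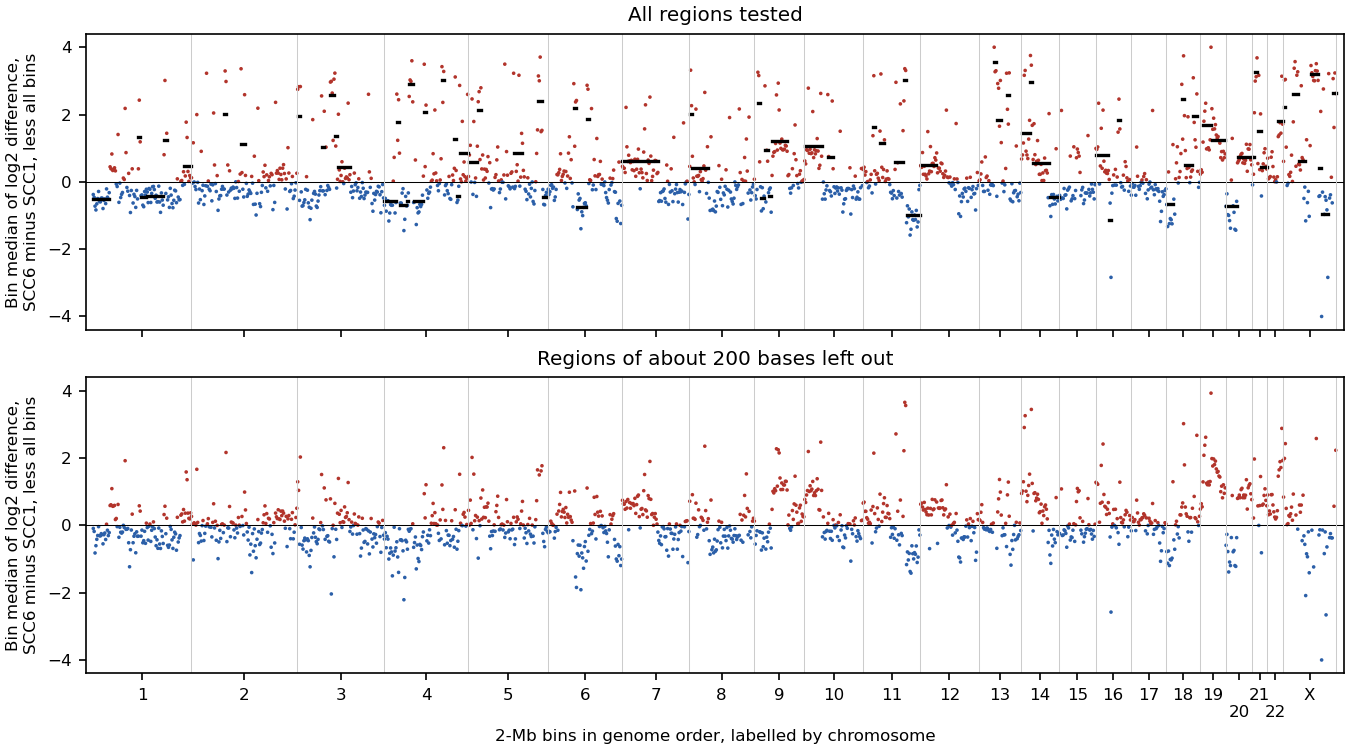
Median log2 difference, SCC6 minus SCC1, of each 2-Mb bin less the median of all bins (vertical axis, values beyond 4 drawn at 4), in genome order labelled by chromosome, red above and blue below 0. Top, all tested regions with the 79 described segments as black lines; bottom, regions within 5 bases of 200 left out, where many scattered high bins are gone and the high bins of 11q stay.

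21 windows around genes that are often gained or lost in these cancers were read without the narrow class, 1 Mb to either side. The 11q22 window, with YAP1 and BIRC2, had a median of 3.38, and 180 of its 183 regions were higher and 0 lower. The 14q13 window (PAX9 to FOXA1) stood at 1.48 and the 20q13 window (ZNF217 to AURKA) at 0.81. On the lower side 18p11 (YES1 to TYMS) stood at -0.86 and 9p21 (MTAP to CDKN2B) at -0.70. The EGFR window stood at 0.34, with 33 of 93 regions higher and 23 lower, the FGFR1 window at 0.26, the MYC window at 0.20, the ERBB2 window at -0.08 and the CCND1 window on 11q13 at -0.15.

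The listed genes of 11q22 described here were higher in SCC6. At the promoter of YAP1, the co-activator of the Hippo pathway (chr11:101980600-101983017, coding exon), the signal was 469.7 and 484 in SCC1 and 5263, 5317 and 5728 in SCC6, a log2 difference, with its SE, of 3.51 ± 0.05 (limma, adjusted p = 3.08e-08). BIRC2 (3.87 ± 0.07) and BIRC3 (3.58 ± 0.07), inhibitors of apoptosis, and the matrix metalloproteinases MMP7 (4.01 ± 0.15), MMP10 (3.37 ± 0.16), MMP13 (2.84 ± 0.23) and MMP1 (2.66 ± 0.15) were higher too. The median over all regions of this segment was 3.26, so that MMP13 and MMP1 lay below it. The 5 most significant higher regions outside promoters all lay here, 2 by BIRC3, 1 in MMP20 and 2 in ARHGAP42. The first, by BIRC3 (chr11:102138433-102140035, between genes), had 358 and 355 in SCC1 and 4144, 3867 and 4202 in SCC6. An intronic ARHGAP42 region (chr11:100731940-100732446, intron) had 32.5 and 31.3 in SCC1 and 1055, 1008 and 1122 in SCC6, a difference of 5.01 ± 0.10, or 1.75 above its segment.

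At 9p21 SCC6 was nearly without reads over a short stretch. All 7 regions from 21994285 to 22052959 on chromosome 9 (58.7 kb) had at most 3 reads in every SCC6 library, while SCC1 averaged 97.0. The stretch holds promoters of CDKN2B, which encodes an inhibitor of CDK4 and CDK6, and of CDKN2A. The CDKN2A regions lie by the outermost start of that gene, at 21995300. No region lay in the rest of the gene, so its other start sites were not read. The CDKN2B region (chr9:22008709-22009614, UTR) had 324 and 241 in SCC1 and 1.21, 0.669 and 1.09 in SCC6, at least 95.3-fold lower in SCC6 against a floor of 3 reads per library. The CDKN2A region (chr9:21994285-21994922, intron) had 119.7 and 149.6 in SCC1 and 1.21, 0.669 and 1.09 in SCC6, at least 45.4-fold lower. The SCC6 values are those of 0 or 1 read, and SCC25 averaged 139 and 70.0 at these regions.

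Of 322 such runs in SCC6, 6 had at least 4 regions above 20 in SCC1. Beside 9p21 they were 1 run of 6 regions on chromosome 13 and 4 runs on Xq, of 10, 4, 18 and 11 regions, between 105712588 and 107556539. The Xq runs hold the promoters of TBC1D8B (119.7 and 123 against 1.21, 0.669 and 1.09, at least 40.9-fold lower) and of ATG4A and PSMD10, which share 1 region (149.6 and 149 against 1.21, 0.669 and 1.09, at least 50.3-fold lower). In SCC1 150 of 1263 runs met the same limits, and in 143 of these most regions were of the narrow class.

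**Figure D3:**
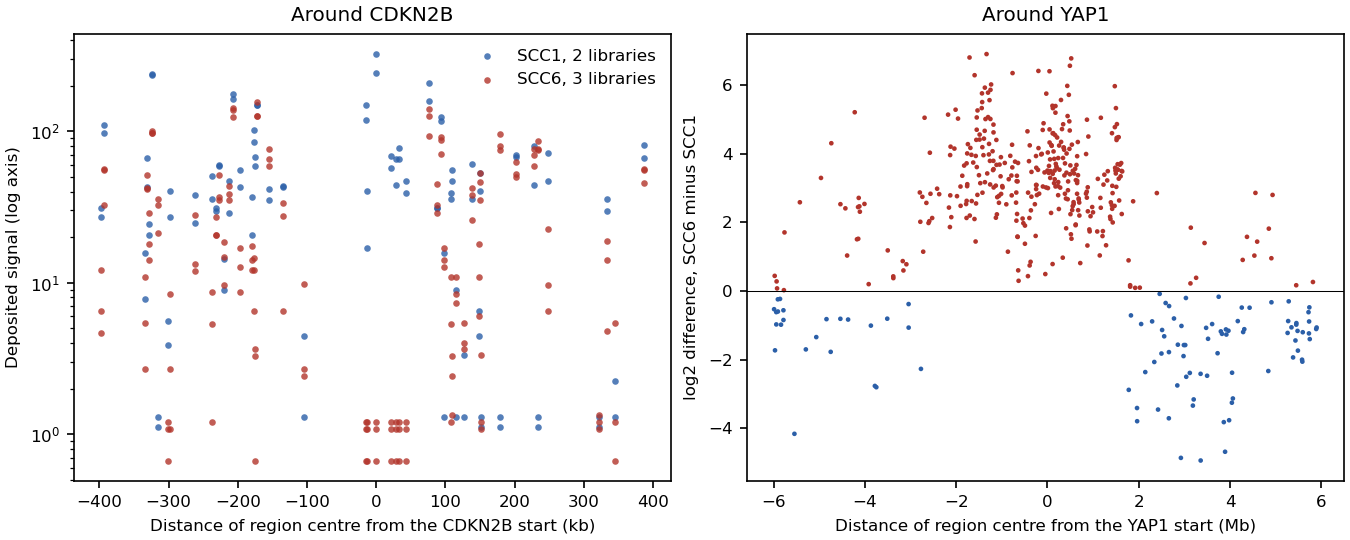
Left, deposited signal (log axis) of regions by distance in kb from the CDKN2B start, each point 1 library, blue SCC1 and red SCC6; the SCC6 points lie at the value of 0 or 1 read in the 7 regions from -14.7 to 43.5 kb and above it at most regions to either side. Right, log2 difference of tested regions outside the narrow class by distance in Mb from the YAP1 start, with the block of high values around the start and mostly negative values to its right.

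Many single promoters differed far more than their segments. Of the 10 promoter regions with the largest excess in SCC6, 7 belonged to zinc finger genes of chromosome 19, whose products bind DNA. ZNF471 (chr19:57018887-57019603, UTR) had 7.81 and 1.12 in SCC1 and 445, 419.5 and 398 in SCC6, a log2 difference of 6.61 ± 0.49 (adjusted p = 1.67e-05). ZFP28 (chr19:57049616-57050557, between genes) had 3.90 and 6.70 in SCC1 and 356, 393 and 404 in SCC6, a difference of 5.97 ± 0.22. Both stand above a segment median of 1.21. Only promoter regions without overlap between the lines could be named here.

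ZNF844 (1.30 and 1.12 against 210.2, 155 and 173) and ZNF701 (1.30 and 1.12 against 116, 125 and 159.9), at 1 read in both SCC1 libraries, were at least 49.5-fold and 36.9-fold higher. ZNF506 (6.12), ZNF568/ZNF829 (5.84) and ZNF682 (5.80) completed the zinc finger genes, followed by RPSA2 (5.84) on the same chromosome and FAM86B2 (5.60) on chromosome 8. RPSA2 and FAM86B2 belong to families of near-identical copies, so their reads are uncertain. The last, USP33 (1.30 and 1.12 against 159, 119 and 117, at least 36.4-fold higher), was read at an intronic region of the narrow class. SCC25 averaged 7.95 at ZNF471 and 10.2 at ZFP28 but 85.0 at ZNF506.

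Zinc finger promoters were then counted as a group, a choice made after these values were seen. On chromosome 19, 189 of 211 tested were higher and 1 lower, with a median of 1.58, and 47 exceeded 3 on the log2 scale. Of 713 other promoter regions of that chromosome 565 were higher and 11 lower, with a median of 1.24, and 28 exceeded 3. On other chromosomes 87 of 224 zinc finger promoters were higher and 24 lower, with a median of 0.23. After cetuximab these medians were 1.09, 0.28 and -0.10.

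The 10 promoter regions lowest in SCC6 were nearly without reads there. TBX18, a T-box transcription factor (chr6:85474063-85474663, between genes), had 397 and 404 in SCC1 and 1.21, 0.669 and 1.09 in SCC6, at least 135-fold lower. ANKK1 (148 and 162 against 1.21, 0.669 and 1.09) was at least 52.3-fold and RAB38, a small GTPase of melanosome transport (152 and 115 against 1.21, 0.669 and 1.09), at least 45.1-fold lower. HNRNPF, an RNA-binding protein (157 and 162 against 1.21, 1.34 and 2.175), had a difference of -5.98 ± 0.36, C1orf74 of -6.21 ± 0.43 and DMRTA2 of -5.97 ± 0.57. The other 4 were CDKN2B, CDKN2A, ATG4A/PSMD10 and TBC1D8B. SCC25 averaged 104 at TBX18 and 58.8 at RAB38, but 4.17 at HNRNPF and 3.63 at ANKK1. Here and among the 10 highest, each gene was read at its most extreme region near any of its start sites. Other promoter regions of these genes were not compared, so such a value need not hold for every start site of the gene.

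The most significant lower regions outside promoters included regions by TCEA1 (-3.86 ± 0.17), RGS20 (-5.22 ± 0.25) and PNRC1 (-3.26 ± 0.16) and one in a UTR of ANKRD33B (-7.10 ± 0.35). The last had 317 and 342 in SCC1 and 1.21, 2.01 and 1.09 in SCC6.

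**Figure D4:**
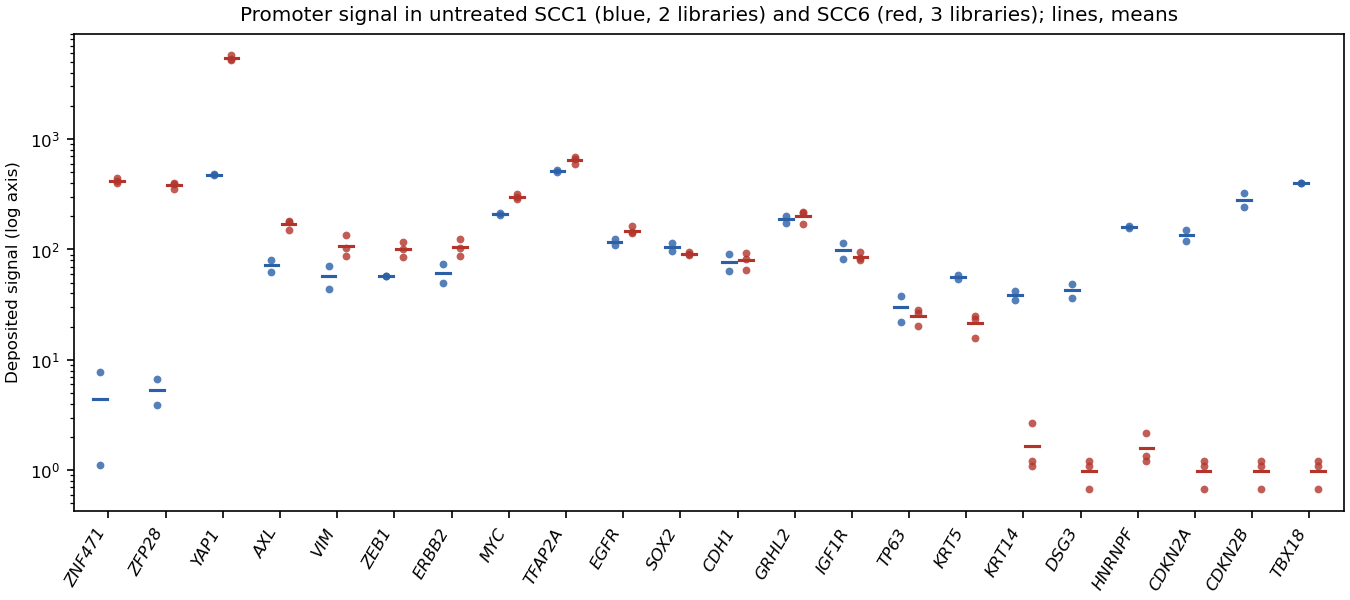
Deposited signal (log axis) at the promoter region of 22 genes, each point 1 library and each line a group mean, blue SCC1 (2 libraries) and red SCC6 (3 libraries). The lines are far apart at ZNF471, ZFP28, YAP1, KRT14, DSG3, HNRNPF, CDKN2A, CDKN2B and TBX18, and their libraries overlap at CDH1, GRHL2, IGF1R and TP63.

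Gene programs were read at 1 promoter region per gene, and 351 of 523 listed genes had one that passed the filter. Of these 92 were higher and 92 lower in SCC6 (26.2% each), beside 28.3% and 19.6% of all promoter regions. The latter shares cover every tested promoter region, whereas a listed gene was read at the one with the highest mean signal. The median of the segment is given beside several of the genes that lie on a described one. In DESeq2 2 squamous transcription factors were higher and 5 lower, 0 and 5 integrin and basement membrane genes, and 3 and 3 NOTCH and WNT genes, so that the balance of these lists depends on the scaling.

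The promoters of KRT5, KRT14 and 3 further keratins of stratified epithelium were lower in SCC6, and those of KRT8 and KRT19 were higher. Of 10 tested 4 were higher and 5 lower, none of them in a described segment. KRT14, the basal type I keratin (chr17:39743131-39743396, between genes), had 35.1 and 42.4 in SCC1 and 1.21, 2.68 and 1.09 in SCC6, a difference of -3.95 ± 0.39 (adjusted p = 4.43e-05). Its partner KRT5 (-1.38 ± 0.30) was lower, and so were KRT6A (-1.63), KRT16 (-1.03) and KRT17 (-0.79), which rise in activated keratinocytes. KRT8, of simple epithelia (chr12:53318903-53320429, intron), had 165 and 192 in SCC1 and 472, 474 and 479 in SCC6, a difference of 1.41 ± 0.10. KRT19 (42.9 and 18.98 against 101, 68.9 and 69.6; 1.43 ± 0.35) was higher in PBS and stood at -0.06 after cetuximab, and KRT18, the partner of KRT8, named after its value was seen, stood at -0.07 ± 0.25 and did not pass the test. The basal keratin KRT15 (0.79) and KRT80 (0.59) were also higher.

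Of 22 desmosome and junction genes 4 were higher, 5 lower and 13 not called. The desmosomal cadherins DSG3, DSC1 (-2.79 ± 0.41) and DSC3 (-1.22 ± 0.18) and the plaque protein PKP1 (-3.26 ± 0.46) were lower. The desmosome gene DSP (0.21 ± 0.17) did not pass the test. DSG3 (chr18:29027511-29027809, between genes) had 36.4 and 49.1 in SCC1 and 1.21, 0.669 and 1.09 in SCC6, at least 14.4-fold lower. TJP3, a tight junction scaffold (2.60 and 4.47 against 25.4, 28.1 and 26.1), was higher by 2.63 ± 0.36 and stood at -0.05 after cetuximab. CDH1, which encodes E-cadherin, had 63.8 and 91.6 in SCC1 and 93.0, 64.9 and 81.6 in SCC6, so that the lines overlapped, and its sign changed between scalings.

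Cornification genes split 3 to 3 of 8 tested, with the envelope precursors SPRR1A (3.06 ± 0.44) and SPRR1B (1.496 ± 0.23) higher and TGM1, the enzyme that crosslinks the envelope (-2.39 ± 0.28), lower. Their segments had medians of the opposite sign, -0.41 for both SPRR1 genes and 1.07 for TGM1. In the integrin and basement membrane list 2 of 19 were higher and 4 lower, led by the hemidesmosome collagen COL17A1 (67.7 and 74.8 against 3.62, 14.1 and 16.3; -2.76 ± 0.55) and the laminin chain LAMA3 (-1.05 ± 0.14).

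Of 19 squamous transcription factors 5 were higher and 3 lower. TP73, a relative of TP63, had 137 and 149 in SCC1 and 6.04, 8.70 and 7.61 in SCC6, a difference of -4.10 ± 0.30 (segment median -0.52), and stood at -0.69 after cetuximab. OVOL1, a factor of epidermal differentiation (-1.195 ± 0.21), was lower as well. TFAP2C, an AP-2 factor (1.15 ± 0.17), was higher on the higher 20q segment (median 0.68), and EHF (1.19 ± 0.38) was higher outside a described one. TFAP2A, an AP-2 factor of surface ectoderm (526 and 499 against 695, 589 and 660.2), was higher by 0.34 ± 0.09 (adjusted p = 0.0091). TP63 (22.1 and 38.0 against 26.6, 20.1 and 28.3; -0.22 ± 0.34) and SOX2 (96.3 and 115 against 95.4, 90.3 and 89.2; -0.20 ± 0.16) did not pass the test. The TP63 region was 153 bases wide and intronic.

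Patterning genes differed in both directions. Of 27 head and neck patterning factors 6 were higher and 6 lower. TSHZ2 (9.11 and 4.47 against 62.8, 48.2 and 53.3; 2.90 ± 0.36) and FOXE1, a forkhead factor of thyroid and palate (13.01 and 22.3 against 84.6, 95.7 and 79.4; 2.27 ± 0.27), had the largest excess in SCC6, on segments with medians of 0.68 and 1.10. PAX1 (52.0 and 56.9 against 1.21, 2.01 and 3.26; -4.19 ± 0.40) and BARX2 (-1.79 ± 0.28) had the largest deficit, on the lower 20p and 11q segments (-0.87 and -1.06). PAX9, needed for teeth and palate, was higher by 0.95 ± 0.10 on a 14q segment whose median is 1.07.

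Of 19 HOX genes, which set position along the body axis, 7 were higher and 4 lower. HOXD13, at the 5′ end of the HOXD cluster, had 130.1 and 114 in SCC1 and 3.62, 0.669 and 3.26 in SCC6, a difference of -5.26 ± 0.49, and HOXD11 (273 and 295 against 59.2, 62.2 and 81.6) one of -2.07 ± 0.17. The higher ones were 5 HOXA genes on the higher 7p segment (median 0.46), led by HOXA13 (1.23 ± 0.17), and HOXC6 and HOXC9, which share 1 region (0.86 ± 0.19). With segment medians subtracted 3 HOX genes were higher and 3 lower.

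Of 23 mesenchymal genes 6 were higher and 9 lower, with a median of -0.32 against 0.07 over all promoter regions. The balance turned to 8 higher and 5 lower with the GC trend removed, and with segment medians subtracted it was 2 and 5. PRRX1, a mesenchymal homeobox factor (126 and 116 against 14.5, 9.37 and 20.7; -3.01 ± 0.34), COL1A2 (-2.03 ± 0.56), ACTA2 (-1.93 ± 0.14) and TAGLN (-1.501 ± 0.23) were lower, with segment medians of -0.41 for PRRX1 and -1.06 for TAGLN. VIM, the mesenchymal intermediate filament (chr10:17272019-17272689, UTR), had 44.2 and 71.5 in SCC1 and 134, 102 and 88.1 in SCC6, a difference of 0.91 ± 0.26 (adjusted p = 0.0135), and ZEB1, a repressor of epithelial genes (57.2 and 56.9 against 101, 85.0 and 116), one of 0.80 ± 0.19. Both lie on the higher 10p segment, whose median is 0.91, and with it subtracted they stood at -0.0042 and -0.11. TWIST1 (0.88 ± 0.24, segment median 0.46) and COL5A1 (1.08 ± 0.21) were higher too.

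Of 20 receptor tyrosine kinases 3 were higher and 5 lower. AXL (80.7 and 62.5 against 149, 180.0 and 177) was higher by 1.23 ± 0.17 (adjusted p = 2.81e-04) on 19q, whose segment median is 1.21, and stood at 0.34 after cetuximab. NTRK2, a neurotrophin receptor (1.44 ± 0.22), was higher on the higher 9q segment (1.10). ERBB2 (49.4 and 73.7 against 123, 104 and 87.0) was higher by 0.77 ± 0.23 and stood at -0.43 after cetuximab. PDGFRA (-1.94), KIT (-1.32), EPHA4 (-1.25), MERTK (-1.21) and MET (-0.28) were lower, PDGFRA and KIT on a 4q segment with a median of -0.48. EGFR, the target of cetuximab (124 and 109 against 144, 139.8 and 162; 0.35 ± 0.14, adjusted p = 0.0571, segment median 0.46), IGF1R (-0.17 ± 0.19) and FGFR1 (0.73 ± 0.43) did not pass the test.

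Of 21 growth factor ligands 5 were higher and 7 lower. FGF5 (213 and 214 against 22.96, 24.8 and 39.2; -2.88 ± 0.25), the neuregulins NRG2 (-2.59) and NRG1 (-0.74), the FGF carrier FGFBP1 (-2.05) and the EGFR ligand BTC (-1.18) were lower. FGF5 and BTC lie on the lower 4q segment (-0.62) and FGFBP1 on a lower 4p one (-0.66). BMP4 (7.81 and 10.1 against 71.3, 88.3 and 84.8) was higher by 3.06 ± 0.26 (segment median 0.46), and IGF1 (3.91 ± 0.35) was read at a region of the narrow class.

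Of 25 AP-1 and ERK output genes 6 were higher and 7 lower, and 6 and 2 with segment medians subtracted. The AP-1 genes JUNB (1.72 ± 0.18), JUND (1.33 ± 0.15) and FOSB (1.27 ± 0.18) lie on chromosome 19, with segment medians of 1.53, 1.53 and 1.21. ETS1 (-1.07 ± 0.09) lies on the lower 11q segment (-1.06). The ERK feedback genes DUSP6 (288 and 297 against 182, 164 and 147; -0.83 ± 0.13) and SPRED1 (-0.84 ± 0.13) were lower outside such segments.

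Interferon and antigen presentation genes were mostly lower where they differed. Of 21 tested 2 were higher and 10 (47.6%) lower, beside 19.6% of all promoter regions and 26.2% of all listed genes. The median was -0.63, and with segment medians subtracted 1 was higher and 7 lower. With the GC trend removed 2 were higher and 6 lower, and under 5 other scalings 1 or 2 were higher and 9 to 12 lower. IRF7, which drives the interferon response, had 83.3 and 108 in SCC1 and 2.42, 4.68 and 1.09 in SCC6, a difference of -4.80 ± 0.47. The interferon-induced IFI27 (-4.19 ± 0.58, segment median -0.47), OAS2 (108 and 111 against 7.25, 12.7 and 13.1; -3.24 ± 0.33), IFIT2 (-1.94 ± 0.38) and RSAD2 (-1.13 ± 0.12) were lower. IRF9, a subunit of the interferon-activated factor ISGF3, was higher (1.26 ± 0.13) on a higher 14q segment (1.07).

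Of 23 inflammatory cytokine genes 5 were higher and 9 lower. IL6 had 169 and 189 in SCC1 and 19.3, 24.1 and 26.1 in SCC6, a difference of -2.90 ± 0.22 (segment median 0.46), and IL36G (-2.71), CXCL2 (-2.59), CCL20 (-2.41) and CXCL8 (-1.88) were lower as well, the CXCL genes on the lower 4q segment (-0.62). Of the higher ones 4 were the metalloproteinases of 11q22, and the fifth was IL11 on 19q (1.08 ± 0.33, segment median 1.21).

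Of 23 NOTCH and WNT genes 9 were higher and 2 lower. WNT7B (1.98 ± 0.31) lies on the higher 22q segment (1.52), whereas the WNT target AXIN2 (63.8 and 53.6 against 133, 108 and 109.8; 0.98 ± 0.18) and the NOTCH target HEY2 (0.78 ± 0.11) were higher outside a described one. JAG1, a NOTCH ligand (-1.09 ± 0.12), was lower on the lower 20p segment (-0.87). Of 16 NRF2 pathway genes 3 were higher and 5 lower. KEAP1, which restrains NRF2 (2.06 ± 0.17), was higher on 19p (1.53), and UGT1A6 (-1.40 ± 0.20) and ME1 (-0.96 ± 0.14, segment median -0.71) were lower.

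Of 39 cell cycle and driver genes 16 were higher and 6 lower, and 8 and 4 with segment medians subtracted. Beside the genes of 11q22 and 9p21, CCNE1 was higher (1.65 ± 0.21) on 19q (1.21). MYC (204 and 212 against 319, 286 and 298) was higher by 0.53 ± 0.10 (adjusted p = 0.00178). The protocadherin FAT2 (-1.04 ± 0.25) was lower, and so was TGFBR2, a TGF-beta receptor (-0.60 ± 0.12). TGFBR2 lies outside the described segments, on one with a median of -0.49 and a mean of -0.39. CCND1 had no promoter region. Of 13 housekeeping genes 5 were higher and 0 lower, with a median of 0.25, or 4 and 1 with a median of 0.08 in DESeq2. RPL13A (1.10) lies on 19q (1.21) and EEF2 (1.87) was read at a region of the narrow class.

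**Figure D5:**
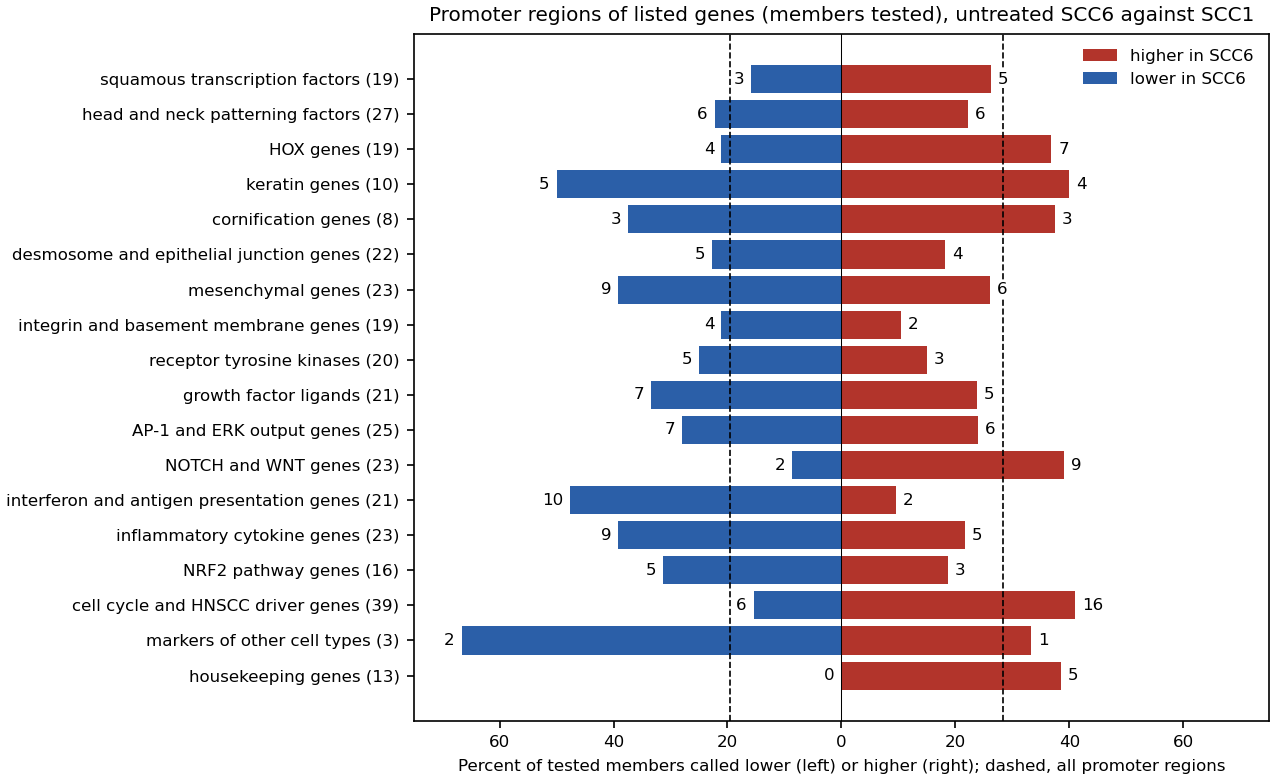
Percent of tested promoter regions called higher (red, right) or lower (blue, left) in SCC6 in 18 gene lists, with the number called at each bar end and the number tested in brackets; dashed lines mark 28.3% and 19.6%, the shares over all promoter regions. Among lists with over 20 genes tested the interferon and antigen presentation list has the largest lower share (47.6%) and the cell cycle and driver list the largest higher share (41.0%).

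The peak lists, called per library, are a further readout of the same reads. A peak lay in all 3 SCC6 libraries and no SCC1 library at 16394 regions, in both SCC1 libraries and no SCC6 library at 5949, and in all 5 at 16329. Of the first group 50.1% were of the narrow class, and 8178 remained without it. Without SCC1 PBS replicate 3 the SCC1 group held 8939 regions. Median GC content was 39.3%, 49.1% and 55.9% in the 3 groups and the share of promoter regions 9.32%, 5.90% and 40.8%. The SCC6 libraries held 47441 to 66383 peaks and the SCC1 libraries 34763 and 36033. Reads in regions were 4098164 to 7260488 in SCC6 and 3577180 and 4171650 in SCC1. The peak groups were not matched for depth, so their sizes do not compare openness alone.

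RUNX sites were more frequent in the regions higher in SCC6, and TP63 pairs in those lower. Outside promoters and the narrow class, TGTGGTT lay on either strand in 19.2% of 14838 higher regions, 7.83% of 19558 lower ones and 10.6% of 7725 with an adjusted p over 0.5, against 11.99% of all 57533. The TP63 pair lay in 1.03%, 3.21% and 1.37%, against 1.92% of all, and in 0.950%, 3.11% and 1.32% by spellings other than the most frequent one. In regions of 250 to 500 bases and 40% to 50% GC the shares were 21.1%, 8.70% and 12.1% for RUNX and 1.35%, 4.41% and 1.91% for the pair.

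RUNX and the TP63 pair stood furthest apart, by the ratio of the shares in higher and lower regions, among the 16 motifs searched. Forkhead sites (TGTTTAC) lay in 11.2%, 7.09% and 7.09% of higher, lower and uncalled regions, TEAD sites (GGAATG) in 35.6%, 28.7% and 29.0%, NF-kB sites (GGG, 2 free bases, TT, 1 free base and CC) in 6.48%, 9.43% and 6.49% and AP-1 sites (TGANTCA) in 46.9%, 49.4% and 47.2%. Over all regions these 4 shares were 8.22%, 30.5%, 7.64% and 48.4%. A match is a string of letters, not a bound factor, and no test was run. The promoter regions of RUNX1 (49.4 and 72.6 against 59.2, 52.9 and 45.7; -0.19 ± 0.24) and RUNX2 (71.6 and 68.1 against 95.4, 57.5 and 70.7; 0.06 ± 0.23), looked up after the shares were seen, did not pass the test. RUNX3 had no promoter region and could not be read.

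The cetuximab libraries, which share no library with the PBS comparison, gave 34441 regions (39.9%) higher and 22251 (25.8%) lower in SCC6. Of the 30135 regions higher in PBS and tested there 84.3% were also higher, 99.2% of those of the narrow class and 73.3% of the others, and of the 21445 lower ones 68.7% were also lower. A line difference that depended on treatment was called at 8347 regions (9.67%) by the interaction term in limma. Side by side, YAP1 stood at 3.51 in PBS and 3.47 after cetuximab, ZNF471 at 6.61 and 6.01, KRT14 at -3.95 and -4.70 and IL6 at -2.90 and -3.71. CDKN2B (-7.15 and -7.05), CDKN2A (-6.09 and -6.17) and TBX18 (-7.67 and -7.19) were lower in both.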

How the data were processed

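ATAC-seq libraries of untreated SCC6 (3) and SCC1 (2) were compared, grouped by the labels. By the submitters' processing notes and the study's methods the authors used Trim Galore 0.5.0, Bowtie2 2.3.2, SAMtools 1.9 and Picard 2.18 on hg19 (GRCh37), and MACS2 called broad peaks per library, without pooling. The deposited signal is a read count per region scaled to library size, with 0 reads set to 1, and 100% of values came out as whole reads at a tolerance of 0.001. The deposited peak lists also hold fold enrichment, a ratio over background, and −log10 p and q values, of which −log10 q was used in 1 alternative. Region coordinates were matched to an annotation of the same build.

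Log2(signal + 1) was fitted with limma 3.58.1 in R 4.3.3, without a block, after dropping the lowest 25% of regions by mean, and log2 differences are on that scale, which understates changes of low regions. An exact test of 3 against 2 libraries cannot go below p = 0.1. Count tests used edgeR 4.0.16 and DESeq2 1.42.0 on the recovered reads. Joins and motif searches used Python 3.11.15, numpy 2.4.6, pandas 2.3.3 and pysam 0.24.0. Segments joined 2-Mb bin medians, and a listed gene was read at 1 promoter region, within 1 kb of a start site.

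Named were the 10 promoter regions with the largest difference in each direction among those called, without overlap between lines and with a mean of at least 100 in the higher line; the 5 regions outside promoters with the smallest adjusted p in each direction; at most 6 called members of each list in each direction; TFAP2A, VIM, EGFR, AXL, ERBB2, IGF1R, FGFR1, TP63, SOX2, CDH1, ZEB1, CDKN2A, CCND1, MYC and YAP1; and the described segments and 21 windows. The members and gene lists were chosen with earlier results of these data known. The fit was tested on simulated data of 86315 regions, where it recovered 81% of 200 regions changed by 2 on the log2 scale, with 10 false calls among 172. The simulated dispersion was fixed at 0.05 and all other regions were left unchanged. In the data most regions differed, so these rates do not carry over. Alternatives covered scaling, filter, pseudocount, count tests, thinning, GC content, segment medians, the replicate block and leaving out libraries. Some items that the naming rule picks are not reported here.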

Additional observations from a re-analysis of the deposited data

Results flagged for a closer look

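The difference between SCC6 and SCC1 itself depended on cetuximab at 26 of the 192 named regions, by the interaction term in limma over all regions (two-sided, adjusted p from 7.50e-05 to 0.0488). Of all tested regions 9.67% were called. Promoter regions also moved as a class, from a median of 0.07 in PBS to -0.26 after cetuximab, against 0.15 and 0.37 outside promoters. Other promoter regions of chromosome 19 moved from 1.24 to 0.28. Moves of single genes were not separated from these shifts. Values are the log2 difference, SCC6 minus SCC1, in cetuximab minus that in PBS, with both differences in parentheses.

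The sign differed between treatments at 10 of them. The difference moved at KRT15 by -1.62 (from 0.79 to -0.82), RPL13A by -1.63 (from 1.10 to -0.54), IGF2 by -1.80 (from 1.52 to -0.28), TJP3 by -2.68 (from 2.63 to -0.05) and CLDN7 by -1.38 (from 0.47 to -0.90). It also moved at CDH1 by -1.23 (from 0.05 to -1.18), SLC7A11 by 0.90 (from -0.52 to 0.38), PPIA by -0.76 (from 0.56 to -0.19), SNAI1 by -1.18 (from 0.76 to -0.41) and FOS by -1.32 (from 0.88 to -0.44).

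Where the difference was above 0 under both treatments it moved at IRF9 by -1.04 (from 1.26 to 0.22), BIRC3 (region outside its promoter) by -0.63 (from 3.63 to 3.01), JUND by -1.25 (from 1.33 to 0.08), KEAP1 by -1.26 (from 2.06 to 0.80), ARHGAP42 (region outside its promoter) by -0.68 (from 5.01 to 4.34), ZNF701 by -1.76 (from 5.92 to 4.16), ITGB5 by 0.94 (from 0.42 to 1.36) and TFAP2C by -0.71 (from 1.15 to 0.45). Where it was below 0 under both it moved at TP73 by 3.40 (from -4.10 to -0.69), CD68 by -1.38 (from -0.49 to -1.88), TCEA1 (region outside its promoter) by 1.22 (from -3.86 to -2.64), IGF1R by -1.13 (from -0.17 to -1.30), FADD by -0.98 (from -0.62 to -1.59), NQO1 by -0.65 (from -0.41 to -1.06), PNRC1 (region outside its promoter) by 0.80 (from -3.26 to -2.46) and HOXB9 by -1.83 (from -0.86 to -2.69).

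With 2 or 3 libraries in a group, single outlying libraries were not tested.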

How the results depend on the processing

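Among 192 named regions 3976 of 4399 values kept their direction and side of the threshold, 367 lost the call, 3 gained it and 53 changed sign. Higher regions numbered 19675 with the lowest 50% left out and 18628 without the narrow class. Promoter regions called higher numbered 2698 in DESeq2 and those lower 1773 at an adjusted p under 0.01 and 1849 with the GC trend and segment medians removed together. Listed genes' regions called higher numbered 57 in DESeq2 and those lower 60 with both removed. Segments higher in SCC6 covered 368 Mb from promoter regions only, 612 Mb without the narrow class, 574 Mb with the GC trend removed and 156 Mb from the lowest 25% of regions. Segments lower covered 205 Mb in 5-Mb bins, 158 Mb from promoter regions only and 154 Mb from the lowest 25%. Regions with peaks in SCC6 only numbered 10238 where peaks had to cover 50% of the region, 2522 at a −log10 q of at least 5 and 8178 without the narrow class, and those in SCC1 only 1084 at that q. The narrow class and the joint GC and segment removal were chosen after seeing the data. The cause of these shifts was not tested.

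Leaving out each library in turn gave 27992 to 32714 regions higher and 18875 to 22306 lower, 3460 to 4020 and 2340 to 2600 promoter regions, 76 to 86 and 76 to 86 regions of listed genes, 846 to 982 Mb and 272 to 400 Mb in segments, and 17509 to 22294 and 6163 to 8939 regions with peaks in 1 line only. A lone SCC1 library was assumed to vary as the SCC6 libraries did.

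Same-numbered replicates showed no shared deviation (correlations 0.0067 and 0.00081). With 2 SCC1 libraries, whose deviations mirror each other, this cannot tell whether libraries of the same number were handled together. With the replicate block 29869 regions were higher and 20965 lower, 3637 and 2381 of promoter regions and 84 and 84 of those of listed genes.

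Log2 differences changed sign as follows. With the GC trend and segment medians removed together they stood at EHF -0.095, PPL -0.12, SNAI1 -0.036, JUND -0.53, ETS1 0.063, LFNG -0.048, MMP10 -0.041, MMP13 -0.13, MMP1 -0.39, IL11 -0.13, ME1 0.070, NQO1 0.0030, CCNE1 -0.21, EP300 -0.070, TGFBR2 0.20, PIK3CA 0.32, PAX8 0.019, CD68 0.018, ACTB -0.0030, EGFR -0.25, TP63 0.29 and SOX2 0.47. With segment medians alone subtracted they stood at PAX9 -0.12, HOXA5 -0.040, CRB3 -0.055, ST14 0.043, VIM -0.0042, ZEB1 -0.11, ITGB8 -0.091, MET 0.047, JUND -0.20, MMP13 -0.43, MMP1 -0.60, IL11 -0.13, EP300 -0.32, AJUBA -0.010, RPL13A -0.12, EGFR -0.11, IGF1R 0.067, TP63 0.048 and SOX2 0.073. With the GC trend alone removed they stood at PIK3CA 0.044, TP63 0.017 and SOX2 0.20. Without SCC1 PBS replicate 3 they stood at IGF1R 0.067 and TP63 0.15. CDH1 stood at -0.049 after centring, -0.096 under TMM, -0.14 in edgeR, -0.15 in DESeq2, -0.067 after thinning, -0.21 without SCC1 PBS replicate 1 and -0.070 without SCC6 PBS replicate 1. Leaving out libraries in turn gave -0.40 to 0.07 for IGF1R, -0.60 to 0.15 for TP63 and -0.21 to 0.30 for CDH1.

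With 2 SCC1 libraries of 3577180 and 4171650 reads, 27.7% and 21.8% of regions there were at 1 read or none, so that low regions could not be ranked within SCC1.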
